A study of Rattus norvegicus with 12 samples.

Results

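The angiotensin system and the endothelin gene were followed in the neonatal rat left ventricle through 4 gene rows, chosen by identifier from the 34733 rows of each count file. They were angiotensinogen (Agt, ENSRNOG00000018445), angiotensin-converting enzyme (Ace, ENSRNOG00000007467), the angiotensin II type 1a receptor (Agtr1a, ENSRNOG00000018346) and endothelin 1 (Edn1, ENSRNOG00000014361). The symbols came with the choice of rows. The files hold identifiers alone, and 0 of the 32883 Ensembl identifiers matched the RefSeq table used here, so the symbols were not checked against an annotation. Sprague-Dawley pups, male and female, had either sham surgery or abdominal aortic banding (ABS). For the banding, a thread was tied around the abdominal aorta together with a padding needle, and the needle was then withdrawn. The operation was done on postnatal day 1, and left ventricles were collected on postnatal day 3 (P3) or 7 (P7). This gave 4 groups, ABS and sham at P3 and ABS and sham at P7, with 3 libraries each. The labels call the material left ventricular myocardiocytes, and the study's methods call it left ventricles. Marker genes of heart cell types could not be looked up by identifier, so the tissue was not checked. Per surgery and day, 3 pups were set aside for sequencing, as many as there are libraries, although no label ties a library to a pup.

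Angiotensinogen is a secreted protein that renin cuts to angiotensin I, and angiotensin-converting enzyme trims angiotensin I to angiotensin II. Angiotensin II acts through its type 1 receptor, of which rodents carry an a and a b form, to narrow vessels and to stimulate growth of cardiac cells. Endothelin 1 is a vasoconstrictor peptide made largely by endothelial cells, and both peptides are known for their part in the response of the heart to pressure load. Renin, the other receptors and the converting enzymes of endothelin were on a list of related genes, but none of them could be matched to a row, and they were not analysed here.

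The stretches of DNA before the start sites of Edn1 and Agtr1a are shown because Edn1 was the only member to pass an adjusted threshold and Agtr1a was the receptor row beside it. Both were read from RefSeq promoters of the assembly GRCr8, for which 3 of the 4 symbols had an entry. Capitals mark matches to motif letters, searched on both strands of the 250 bases before the start. The TATA box was searched as TATAAA. The letters bound by GATA factors were searched as AGATAA. Those of AP-1 were searched as TGACTCA, and those of Sp1 were searched as GGGCGG. Both stretches lie on the minus strand, are written 5′ to 3′ and end with the last letter of the TATA box.
Edn1, chr17:22666792-22666937: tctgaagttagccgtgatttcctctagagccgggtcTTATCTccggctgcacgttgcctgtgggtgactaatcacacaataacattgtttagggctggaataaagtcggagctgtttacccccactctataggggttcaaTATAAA
Agtr1a, chr17:34435472-34435621: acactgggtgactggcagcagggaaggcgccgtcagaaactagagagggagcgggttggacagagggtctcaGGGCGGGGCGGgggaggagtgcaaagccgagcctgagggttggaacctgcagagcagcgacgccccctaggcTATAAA

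The TATA box began 110 bases before the annotated start of Edn1 and 45 bases before that of Agtr1a. Edn1 held 1 match to the GATA letters, on the opposite strand and 214 bases before the start. Agtr1a held 2 overlapping matches to the Sp1 letters, 117 and 112 bases before the start. Of the 33469 promoters of this length, 12.9% held the TATA letters, 10.3% the GATA letters, 30.5% the Sp1 letters and 4.05% the AP-1 letters. Neither of the 2 genes held the AP-1 letters exactly as searched. Near variants, such as the tgactaa in the Edn1 stretch, were not searched, so an AP-1 site is not excluded. The motifs were picked after these sequences were seen, and a match is a description of letters only.

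Total counts were 14268210 to 17286278 per library. Between 18579 and 18982 genes had at least 1 count in each P7 library, while the P3 libraries ranged from 15266 to 18359. The P3 libraries with the fewest detected genes were ABS replicate 1 (15266), sham replicate 2 (15451) and ABS replicate 2 (15719), and the 10 highest rows took 21.6% to 25.5% of their counts, against 15.7% to 19.4% in the other 9 libraries. Results are therefore also given without these 3 libraries, which leaves 1 ABS library at P3.

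The plot of member levels shows all 12 libraries. Levels are given as CPM, the reads on a row per 1000000 reads of the library. Library totals were scaled by TMM, a normalization that sets aside extreme genes. Row lengths were not known, so levels of different genes were not compared.

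**Figure D1:**
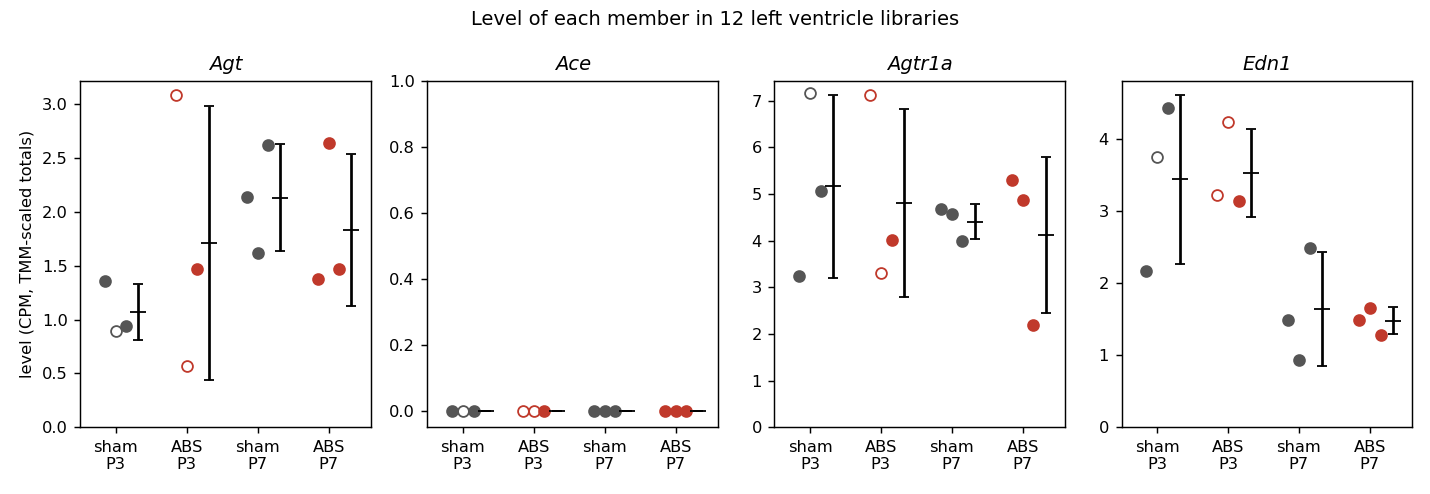
Level of each member (CPM, y axis) in the 3 libraries of each group (x axis), in grey for sham and red for ABS. Open points are the 3 P3 libraries with the fewest detected genes, and black bars are the mean and SD of the group. Edn1 was at 2.16 to 4.43 CPM in the P3 libraries and 0.927 to 2.49 CPM in the P7 libraries, Ace was at 0 throughout, and the groups of Agtr1a overlapped.

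Agt, the source of all angiotensin peptides, was a weakly counted row with 8 to 42 reads per library. At P3, ABS replicates 1, 2 and 3 were at 3.08, 0.574 and 1.47 CPM, and sham replicates 1, 2 and 3 were at 1.36, 0.897 and 0.937 CPM. The ABS group thus held both the highest and the lowest P3 library, each among the libraries with few detected genes. At P7, ABS replicates 1, 2 and 3 were at 1.38, 2.64 and 1.47 CPM and sham replicates 1, 2 and 3 were at 2.14, 1.62 and 2.62 CPM, and the groups overlapped. The group means, from high to low, were 2.13 ± 0.497 CPM in sham at P7, 1.83 ± 0.701 CPM in ABS at P7, 1.71 ± 1.27 CPM in ABS at P3 and 1.07 ± 0.258 CPM in sham at P3 (SD, n = 3 each). Each neighbouring pair in this order lay within the larger SD of the pair. Counting alone left wide margins at this depth. The 8 reads of ABS replicate 2 at P3 gave an exact (Clopper-Pearson) 95% interval of 0.222 to 1.01 CPM, and the 42 reads of ABS replicate 1 gave 1.88 to 3.52 CPM, both per unscaled total and for counting error only. Between these ABS libraries the SD of the counts was 3.45 times that of counting alone, and in the other groups it was 1.21 to 1.71 times.

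Ace, the enzyme that makes angiotensin II, had 0 reads in all 12 libraries. The 0 of 187501960 counts allow a level of up to 0.016 CPM over the series, and 0 counts in a single library allow up to 0.174 to 0.21 CPM, with 3 counts as the limit. The row was left out of every test, and no fold or ratio was formed with it. It shared this with 36.4% of the Ensembl rows, which were at 0 in every library. Whether the row covers the transcribed copy of the gene in the annotation that was counted could not be checked, so the value describes the row and not the enzyme in the ventricle.

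Agtr1a, the main angiotensin II receptor of rodent heart and vessels, had 36 to 97 reads per library. At P3, ABS replicates 1, 2 and 3 were at 7.11, 3.3 and 4.02 CPM, and sham replicates 1, 2 and 3 were at 3.24, 7.17 and 5.06 CPM. The highest value of each surgery group at P3 came from a library with few detected genes. At P7, ABS replicates 1, 2 and 3 were at 5.29, 4.88 and 2.2 CPM, and sham replicates 1, 2 and 3 were at 4.67, 4.58 and 3.99 CPM. The lowest library of the series was ABS replicate 3 at P7, and every group overlapped with every other. The group means, from high to low, were 5.16 ± 1.97 CPM in sham at P3, 4.81 ± 2.02 CPM in ABS at P3, 4.41 ± 0.37 CPM in sham at P7 and 4.12 ± 1.67 CPM in ABS at P7 (SD, n = 3 each), and each neighbouring pair lay within the larger SD of the pair. The sham libraries at P7 were as close as counting allowed, with an SD of counts 0.887 times that of counting alone. In the other 3 groups it was 2.23 to 3.48 times.

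Edn1, the endothelin 1 precursor, had 16 to 71 reads per library and separated the days more than the surgeries. At P3, ABS replicates 1, 2 and 3 were at 3.22, 4.23 and 3.13 CPM, and sham replicates 1, 2 and 3 were at 2.16, 3.74 and 4.43 CPM. At P7, ABS replicates 1, 2 and 3 were at 1.49, 1.65 and 1.28 CPM, and sham replicates 1, 2 and 3 were at 1.49, 0.927 and 2.49 CPM. The days overlapped, since sham replicate 3 at P7 lay above sham replicate 1 at P3. The group means, from high to low, were 3.53 ± 0.61 CPM in ABS at P3, 3.44 ± 1.17 CPM in sham at P3, 1.64 ± 0.793 CPM in sham at P7 and 1.48 ± 0.182 CPM in ABS at P7 (SD, n = 3 each). The step between sham at P3 and sham at P7 was larger than either SD, and the other steps were smaller.

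The comparison of ABS with sham asks whether the banding changed these genes in the ventricle. On either day, 0 of the 3 tested rows passed the threshold of 0.05 on the adjusted p (edgeR, quasi-likelihood F test, Benjamini-Hochberg adjustment over all genes), and 0 of 3 passed it on the unadjusted p. DESeq2 gave 0 of 3 past the adjusted threshold too. Over all genes, 0% passed the adjusted and 0.33% the unadjusted threshold at P3, and 0% and 3.4% did at P7. In these bulk libraries, fewer cells of a type and less RNA per cell cannot be told apart.

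At P3, the log2 fold change of ABS against sham was 0.70 for Agt (standard error 0.81, 95% interval -1.21 to 2.61, adjusted p = 1, edgeR). The interval ran from 0.431-fold to 6.09-fold, so both a 2-fold fall and a rise of several fold were within it. Without ABS replicate 1, the value for Agt was -0.05, so its sign rested on that library. Agtr1a was at -0.08 (95% interval -1.30 to 1.15) and Edn1 at 0.05 (95% interval -1.11 to 1.21), each with an adjusted p of 1 (edgeR). Beside these, the median log2 fold change was 0.05 over the 3 tested rows and -0.01 over the 14222 genes tested. Without the 3 libraries with few detected genes, the values for Agt, Agtr1a and Edn1 were 0.35, -0.04 and -0.07, with adjusted p = 1 from edgeR for each.

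At P7 the libraries were closer to each other and the intervals narrower. The log2 fold changes of ABS against sham were -0.22 for Agt (95% interval -1.01 to 0.57), -0.10 for Agtr1a (95% interval -0.77 to 0.58) and -0.15 for Edn1 (95% interval -1.03 to 0.73), with adjusted p = 1 from edgeR for each. As folds, the intervals spanned 0.497 to 1.48 for Agt, 0.584 to 1.49 for Agtr1a and 0.491 to 1.66 for Edn1, so a 2-fold rise lay outside all 3 intervals, and a 2-fold fall lay outside that of Agtr1a and just inside those of Agt and Edn1. The median was -0.15 over the 3 tested rows and 0.00 over the 14635 genes tested. The signs for Agtr1a and Edn1 each turned when 1 library was left out, to 0.20 without ABS replicate 3 and to 0.29 without sham replicate 3. The exclusions above hold with all libraries kept. For Edn1 without sham replicate 3 (standard error 0.40), a 2-fold rise was no longer excluded. Agtr1a was at -0.32 (standard error 0.34) without ABS replicate 1, where a 2-fold fall was no longer excluded.

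With the days fitted together and day as a term, 6 ABS libraries were set against 6 sham libraries. The log2 fold changes were 0.22 for Agt (95% interval -0.69 to 1.12), -0.10 for Agtr1a (95% interval -0.73 to 0.53) and -0.05 for Edn1 (95% interval -0.69 to 0.58). All 3 had an adjusted p of 1 from edgeR, and exact permutation tests within the days, two-sided, gave p = 0.86, 0.63 and 0.96, where 0.005 is the smallest possible. Of all genes in this fit, 0% passed the adjusted and 1.05% the unadjusted threshold. The sign for Agt turned without ABS replicate 1 of P3 (-0.15), without the 3 libraries with few detected genes (-0.05) and with limma's sample quality weights (-0.09). For Edn1 and Agtr1a the interval excluded a change by a factor of 2 in either direction, and for Agt it did not. This holds only if the surgery effect was the same on both days, as the fit assumes. The fit also takes a single spread per gene for both days. Fitted alone, the days differed in the spread between libraries beyond counting (common coefficient of variation 0.544 at P3 and 0.148 at P7). At P3 alone, the intervals of Edn1 (-1.11 to 1.21) and Agtr1a (-1.30 to 1.15) included such a change.

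**Figure D2:**
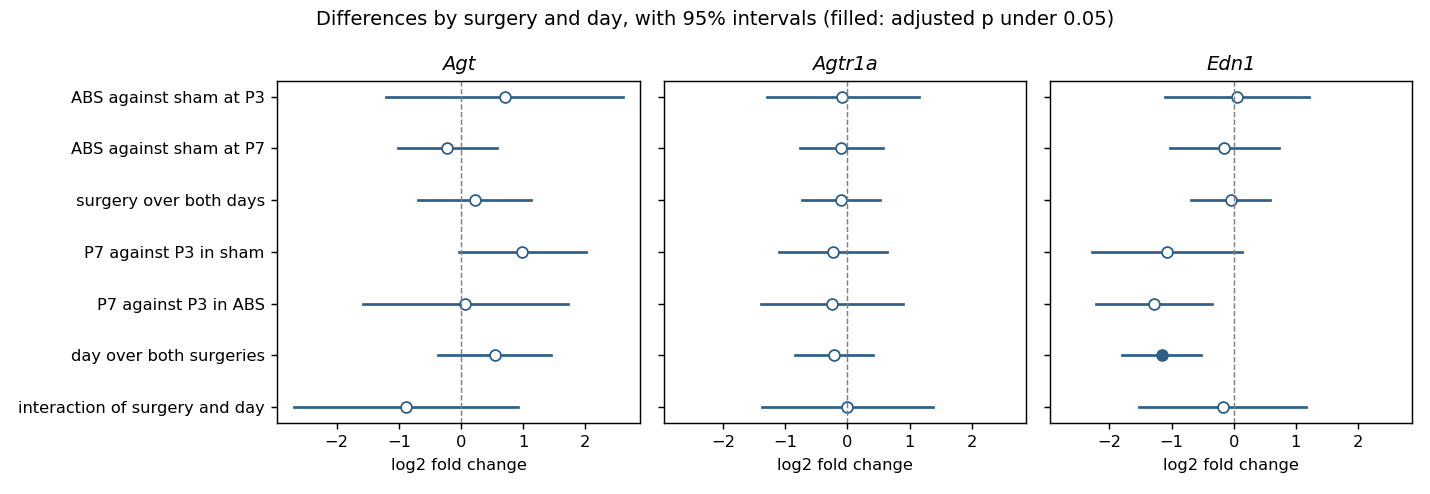
Log2 fold change (x axis) of Agt, Agtr1a and Edn1 in 7 comparisons (y axis), with points for the edgeR estimate and lines for the 95% interval. The interaction is the ABS against sham difference at P7 minus that at P3. The filled point, with an adjusted p under 0.05, is Edn1 between the days over both surgeries at -1.16, and all intervals for ABS against sham cross 0.

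The comparison of P7 with P3 describes the same rows over the first postnatal week. All groups had surgery on postnatal day 1 and none was left unoperated, so age and time since surgery cannot be told apart. Over both surgeries, with surgery as a term, Edn1 fell by 1.16 on the log2 scale from P3 to P7 (standard error 0.30, 95% interval -1.80 to -0.52, adjusted p = 0.0238, edgeR). The level at P7 was 0.447 times that at P3, with an interval of 0.287 to 0.698. Like the fit of surgery over both days, this fit takes a single spread per gene for both days. Its CPM was 3.49 ± 0.834 in the P3 libraries and 1.56 ± 0.522 in the P7 libraries (SD, n = 6 each). Of the 3 tested rows, 1 passed the adjusted threshold, and it was Edn1. Over all genes, 17.1% passed it and 11.5% did so with a lower level at P7, while 37.6% passed the unadjusted threshold. A call between the days was thus common in these libraries. The exact permutation test of Edn1 within the surgery groups, two-sided, gave p = 0.01, where 0.005 is the smallest possible.

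The size of the difference in Edn1 moved little with the processing, but the call did not always hold, as the plot of settings shows. With DESeq2 the log2 fold change was -1.16 and the adjusted p = 0.00218. That fit called 4094 of the 22542 genes with a p-value, which include any that DESeq2's own filter left without an adjusted p. Leaving out 1 library at a time gave -1.39 to -1.07, and the adjusted p rose to 0.0566 when the second ABS library of P3 was absent, to 0.054 when the third sham library of P3 was absent and to 0.0559 when the first ABS library of P7 was absent (edgeR). Without the 3 P3 libraries with few detected genes, the value was -1.05 with an adjusted p of 0.124 (edgeR), and 506 of 16054 genes passed. The levels that remained were 3.24 ± 1.14 CPM (SD, n = 3) at P3 and 1.56 ± 0.522 CPM (SD, n = 6) at P7. The number of detected genes was itself lower at P3, and its part in the difference was not tested.

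**Figure D3:**
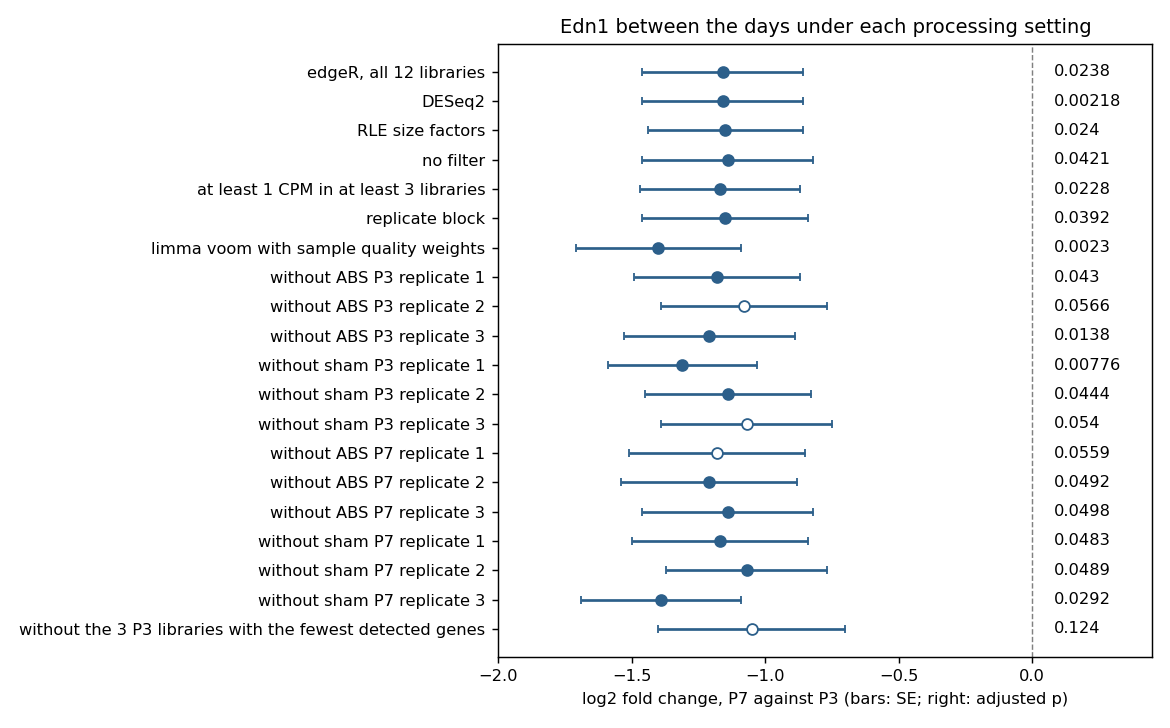
Log2 fold change of Edn1 at P7 against P3 over both surgeries (x axis) under each setting of the processing (y axis), with bars for the standard error and the adjusted p printed at the right. Points are filled where the adjusted p is under 0.05. The values lie between -1.40 and -1.05, and 4 of the 20 points are open.

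Within each surgery group the fall of Edn1 was of like size but did not pass the adjusted threshold. In the ABS group, the log2 fold change of P7 against P3 was -1.28 (95% interval -2.21 to -0.35, unadjusted p = 0.0138 and adjusted p = 0.235, edgeR). In the sham group it was -1.07 (95% interval -2.28 to 0.13, unadjusted p = 0.0729 and adjusted p = 0.33, edgeR), and the groups overlapped by 1 library. Over all genes, 0.0138% passed the adjusted threshold in the ABS group and 0.00684% in the sham group. At the unadjusted threshold, 17.7% passed in the ABS group, 11.5% with a lower level at P7, and 16.1% passed in the sham group, 10.2% with a lower level at P7. With limma's sample quality weights, Edn1 passed the adjusted threshold in both groups, at -1.34 with adjusted p = 0.0164 in the ABS group and at -1.58 with adjusted p = 0.00675 in the sham group. That setting called 6791 of 14504 genes in the ABS group and 6707 of 14619 in the sham group, so a call was common there too. In the ABS group it also passed when the third P3 library was absent, at -1.36 with adjusted p = 0.033 (edgeR), where 7468 of 14915 genes passed.

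Agt had a higher mean at P7 in the sham group, but the difference did not pass the test. Its log2 fold change in the sham group was 0.98 (standard error 0.43, 95% interval -0.04 to 2.01, unadjusted p = 0.0575 and adjusted p = 0.315, edgeR). An exact permutation test of these libraries gave p = 0.1, the smallest that 3 against 3 allow. In the ABS group it was 0.07 (standard error 0.69, adjusted p = 0.955, edgeR), with P3 libraries on both sides of the P7 libraries, and it was 0.81 when the first P3 library was absent and -0.33 when the second was. Over both surgeries it was 0.54 (95% interval -0.37 to 1.44, adjusted p = 0.34, edgeR), and the direction held in the 19 other settings, with adjusted p from 0.111 to 0.543.

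Agtr1a showed no difference between the days that the test could detect. The log2 fold change was -0.23 in the sham group, -0.25 in the ABS group and -0.22 over both (95% interval -0.85 to 0.41, adjusted p = 0.577, edgeR). With all libraries kept, the interval over both surgeries excluded a 2-fold change in either direction. That fit takes the same day effect in both surgery groups and a single spread per gene for both days. With 1 library left out, the value ranged from -0.36 to -0.05. Without ABS replicate 1 of P7 it was -0.34 (standard error 0.32), and a 2-fold fall was no longer excluded. Within the groups, the intervals (-1.10 to 0.64 in sham, -1.39 to 0.90 in ABS) included a 2-fold fall. Without the 3 libraries with few detected genes, the value over both surgeries was 0.06 with adjusted p = 0.932 (edgeR).

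**Figure D4:**
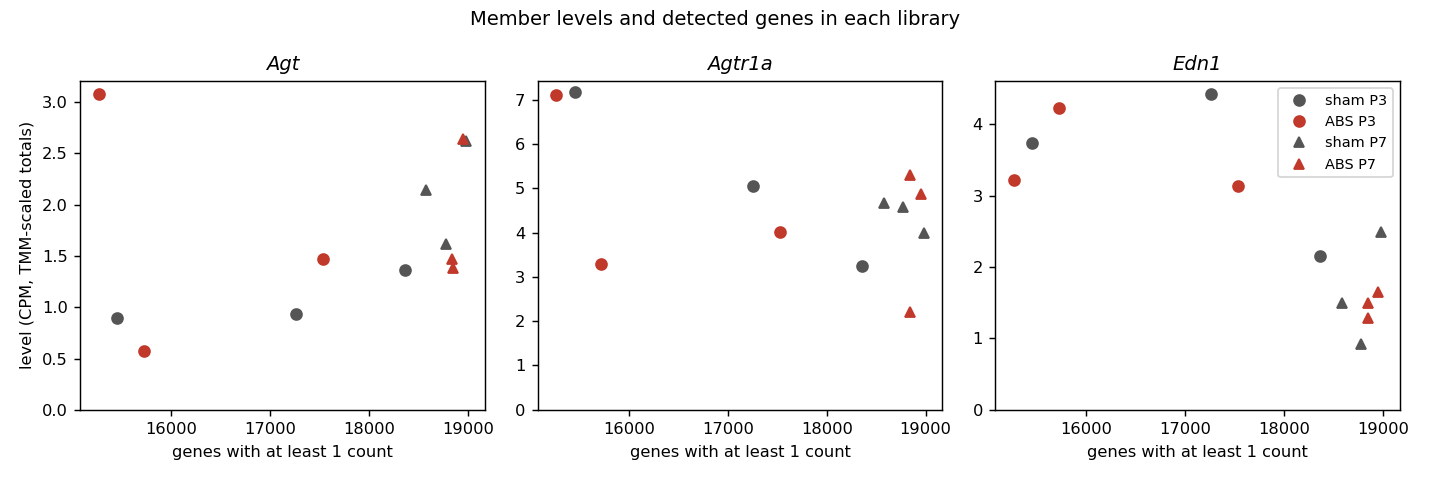
Level of Agt, Agtr1a and Edn1 (CPM, y axis) against the number of detected genes (x axis) in each library, with circles for P3, triangles for P7, grey for sham and red for ABS. The P7 libraries lie together at 18579 to 18982 genes, and the 3 P3 libraries with fewest genes, from 15266 to 15719, hold both the highest and the lowest level of Agt in the series.

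Whether the effect of the banding changed between the days was tested as the interaction of surgery and day. The value was -0.89 for Agt (standard error 0.82, 95% interval -2.69 to 0.92), -0.18 for Edn1 (95% interval -1.52 to 1.16) and 0.00 for Agtr1a (95% interval -1.37 to 1.37), each with an adjusted p of 1 from edgeR. For Agt it was -0.16 without ABS replicate 1 of P3, and -1.30 to -0.16 over the libraries left out in turn. No row (0 of 3) passed the adjusted or the unadjusted threshold, and DESeq2 gave 0 of 3 past the adjusted threshold. Over all genes, 0% passed the adjusted and 1.16% the unadjusted threshold.

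Ratios of the counts of 2 rows within a library do not depend on how its total was scaled. They compare a library with other libraries and not the levels of 2 genes. Edn1 had 1.05 to 7 reads for each read of Agt in the 6 P3 libraries and 0.579 to 1.08 in the 6 P7 libraries, with 0.5 added to each count. On the log2 scale the mean ratio was 1.47 ± 1.04 at P3 and -0.35 ± 0.36 at P7 (SD, n = 6 each). The difference within the surgery groups was -1.82 (exact permutation test, two-sided, p = 0.01). The days overlapped in this ratio, with ABS replicate 1 of P7 at 0.11 and ABS replicate 1 of P3 at 0.07. The ratio holds the same Edn1 counts as the test between the days, so it is not a separate result. Ratios of other gene pairs were not measured over all genes. The ratio of Edn1 to Agtr1a was lower at P7 by 0.97 (exact permutation test, two-sided, p = 0.025), and that of Agtr1a to Agt by 0.85 (exact permutation test, two-sided, p = 0.065). These are unadjusted values among 36 exact tests. ABS and sham libraries overlapped in all 3 ratios on both days, with p from 0.5 to 1.

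**Figure D5:**
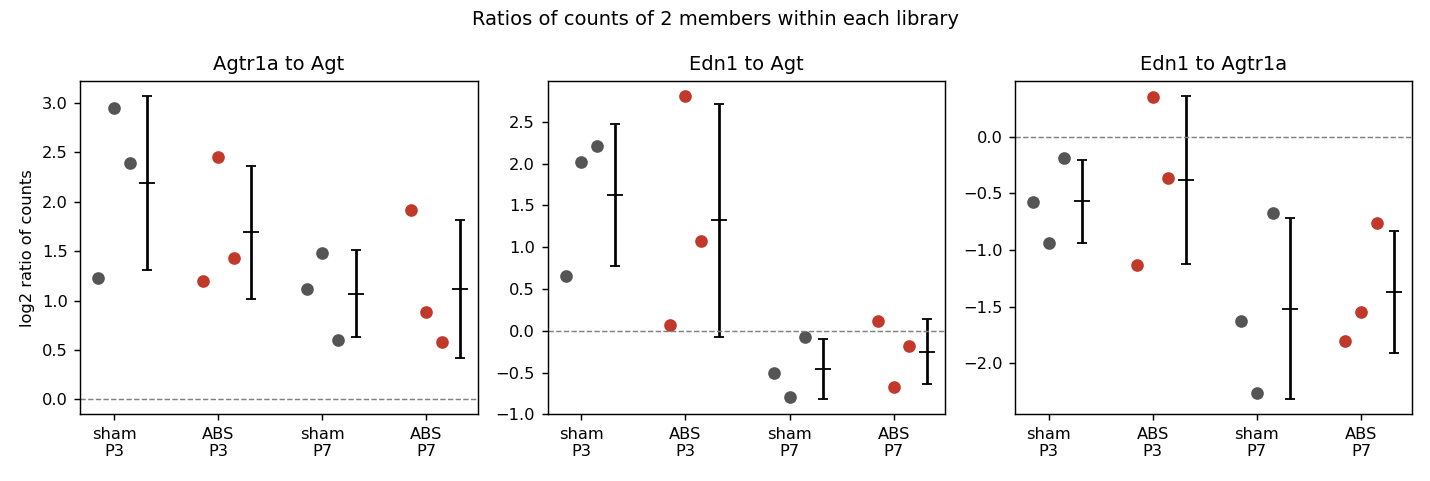
Log2 ratio of the counts of 2 rows in each library (y axis) for the 4 groups (x axis), in grey for sham and red for ABS, with black bars for the mean and SD of 3 libraries. The ratio of Edn1 to Agt lies between 0.07 and 2.81 at P3 and between -0.79 and 0.11 at P7.

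The rows whose log2 CPM followed each member most closely over the 12 libraries were taken from 13787 other rows with a mean of at least 1 CPM. For Edn1 the closest was ENSRNOG00000013877 (Pearson r = 0.93), with group means of 31.1 and 35.5 CPM in sham and ABS at P3 and 20.5 and 20.9 CPM in sham and ABS at P7. As many as 510 rows had an r above 0.8 with Edn1, against 28 with Agt and 23 with Agtr1a. The closest row to Agt was ENSRNOG00000022218 (r = 0.87) and the closest to Agtr1a was ENSRNOG00000011573 (r = 0.91). These values describe 12 libraries that share the contrast of the days and the gap in detected genes, the closest rows were picked from all 13787, and with Spearman's rho another row came first for each member.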

How the data were processed

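RNA of 12 left ventricle libraries was sequenced after poly-A selection, with 3 libraries in each of 4 groups, named by their titles. Low-quality reads and those holding adapters or poly-N were discarded by the authors, and the deposited values are the counts of the remaining reads on each row, made with featureCounts and not normalized. The submitters' processing notes name HISAT2 2.0.5 and the mouse build GRCm38 (mm10), whereas the rows carry rat Ensembl identifiers. The annotation and the strand setting are not given in the sources used here, so reads of overlapping or antisense genes may have been counted on either. Of the 34733 rows, 1850 are numbered rows outside Ensembl, with 0.983% to 1.27% of the counts of a library. Depth was 14268210 to 17286278 counts per library.

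The members and the lists of related genes were chosen with earlier results of these data known. The named genes are the 4 members and the row most like each by Pearson correlation. Counts were tested with edgeR 4.0.16 in R 4.3.3 (TMM, filterByExpr, robust quasi-likelihood F test, two-sided), on the 6 libraries compared or on all 12, with Benjamini-Hochberg adjustment over all genes tested. Standard errors were derived from the F statistic. Alternatives were DESeq2 1.42.0, limma 3.58.1 with voom and quality weights, RLE size factors, 2 other filters, a joint fit of all 12 libraries, a block for the replicate number, and libraries left out. Log2 CPM used a prior count of 2. Exact permutation tests compared means of log2 values. Ratios used a prior count of 0.5, and those of Edn1 were added after seeing that Ace was at 0.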

Additional observations from a re-analysis of the deposited data

How the results depend on the processing

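The 3 libraries per group and the 8 to 97 reads per library on the members with reads limit every value. Of 336 refits of a member's difference, 287 kept its direction and its side of the threshold, 42 turned its direction, 4 lost a call and 3 gained one, and the cause was not tested. The direction of Edn1 between the days over both surgeries held in all 19 alternatives, with adjusted p from 0.00218 to 0.124, and no alternative gave Agt or Agtr1a an adjusted p under 0.05. Group levels moved by less than 1 SD under other scalings. The order of the days for Agtr1a still depended on the scaling. Its mean was 4.98 CPM at P3 and 4.27 CPM at P7 with TMM, and 4.54 and 4.59 CPM with unscaled totals. Edn1 stayed lower at P7 with unscaled totals, at 3.23 CPM at P3 and 1.68 CPM at P7.

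The number of genes called between the days moved widely with the tool and with the libraries. Over both surgeries (2603 genes) it was 4094 with DESeq2, 7304 with limma's quality weights, 506 without the 3 P3 libraries with few detected genes, and 1069 to 6232 with 1 library left out. It was 6232 when ABS replicate 3 of P3 was absent, 5493 when sham replicate 1 of P3 was absent, and 1069 to 1615 when any other library was absent. In the sham group (1 gene) it was 410, 6707 and 0 in that order, 2 with no filter, and 0 to 4820 with 1 library left out, the highest without sham replicate 1 of P3. In the ABS group (2 genes) it was 510, 6791 and 486 in that order, 14 with all libraries fitted together, and 0 to 7468 with 1 library left out, the highest without ABS replicate 3 of P3. ABS against sham (0 genes) gave 4 with DESeq2 and 8 without the 3 libraries at P3, and 10 with DESeq2, 3 with no filter and 1 to 3 with 1 library left out at P7. The interaction (0 genes) gave 5 with DESeq2 and 1 with quality weights.

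With quality weights, Edn1 was at -0.11 for ABS against sham at P3, 0.10 at P7, 0.06 over both days and 0.28 in the interaction, at -1.58 between the days in sham and at -1.34 in ABS, and Agt was at -0.09 for surgery over both days. Without the 3 libraries, Edn1 was at -0.07 for ABS against sham at P3 and -1.05 between the days over both surgeries, Agt at -0.05 for surgery over both days, and Agtr1a at 0.09, 0.02 and 0.06 between the days in sham, ABS and both, and -0.05 in the interaction. With DESeq2 and with RLE size factors, Agtr1a was at -0.02 in the interaction.

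With 1 library left out, ABS against sham at P3 ranged from -0.05 to 1.11 for Agt, -0.48 to 0.24 for Agtr1a and -0.19 to 0.28 for Edn1. At P7 it ranged from -0.32 to 0.20 for Agtr1a and -0.44 to 0.29 for Edn1, and over both days from -0.15 to 0.36 for Agt, -0.27 to 0.04 for Agtr1a and -0.17 to 0.15 for Edn1. Between the days it ranged from -0.49 to 0.09 for Agtr1a in sham, and in ABS from -0.33 to 0.81 for Agt, -0.46 to 0.15 for Agtr1a and -1.36 to -1.12 for Edn1. Over both surgeries Edn1 ranged from -1.39 to -1.07. The interaction ranged from -1.30 to -0.16 for Agt, -0.31 to 0.39 for Agtr1a and -0.49 to 0.22 for Edn1.

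Replicate numbers were not taken to pair the libraries. Deviations of libraries with the same number had correlations of -0.45, 0.36 and -0.01 on P3, and on P7 of 0.01, 0.05 and 0.00, over 15236 genes. On P3, number 1 joins libraries with 15266 (ABS) and 18359 (sham) detected genes, and number 2 joins 15719 and 15451. The correlations on P3 hold this gap in detected genes, so they cannot show whether libraries of the same number belong together. With the replicate block, 0 genes were called between the days in sham and 0 in ABS, Agtr1a was at -0.02 in the interaction, and Edn1 between the days over both surgeries was at -1.15 (adjusted p = 0.0392, edgeR).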
